A study of Rattus norvegicus with 20 samples.

Results

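The genes described here are the ligands, receptors, Smad proteins and secreted antagonists of the transforming growth factor beta (TGF-beta) superfamily on a 1-colour Agilent rat array. Members were chosen by gene name: the inhibin and activin subunits, bone morphogenetic proteins (Bmp), growth differentiation factors (Gdf), TGF-betas, Nodal and Lefty genes, the activin, BMP and TGF-beta receptors, the Smads, and the follistatin, noggin, chordin and gremlin genes. The rule found 60 of the array's 35737 gene names, carried by 74 of its 41012 probes, and 50 of these genes were bright enough to be tested. The name rule also took in Bmp1, Tgfb1i1, Tgfb1i4 and Tgfbrap1, which are neither ligands nor receptors. The rule itself uses gene names and no measured value, though it was set with earlier results of these data known.

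The arrays profiled testes of Han Wistar rat foetuses whose dams were gavaged once a day with DEHP, MEHP, TOTM, EHO or corn oil alone. DEHP is di(2-ethylhexyl) phthalate, MEHP is its monoester and TOTM is tris(2-ethylhexyl) trimellitate, while EHO is known here only by its label. The daily dose of each compound was 500 mg/kg from gestation day 12 to day 19, which is the same mass but not the same number of molecules, and the controls received the corn oil vehicle on the same days. Each of the 20 arrays, 4 per group, held RNA from pooled testes of 3 or more pups of a litter, so whole testes were measured and fewer cells of a type cannot be told apart from less RNA per cell.

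TGF-beta superfamily ligands are secreted dimers that bind pairs of receptor kinases in the cell membrane, and the receptors phosphorylate Smad proteins that enter the nucleus with Smad4 and regulate genes. Activins and TGF-betas signal mainly through Smad2 and Smad3, and BMPs mainly through Smad1, Smad5 and Smad9, while Smad6 and Smad7 inhibit the pathway. Inhibin joins the alpha subunit (Inha) to a beta subunit (Inhba or Inhbb) and opposes activin, which is a dimer of beta subunits alone. In the foetal testis Sertoli and Leydig cells make inhibin subunits, and in the mouse activin A from foetal Leydig cells drives Sertoli cell proliferation.

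Levels below are log2 signals minus the log2 75th percentile of their array, and each gene stands for its brightest probe. Levels of different probes cannot be ranked against each other. Differences are log2 differences with their standard error from limma, and a gene is called at a Benjamini-Hochberg adjusted p under 0.05. MEHP arrays 1 and 2 were averaged, because the 2 arrays differed less (0.784 times) than repeated spots of the same array do, so that n is 3 with MEHP and 4 in the other groups. On this scale pairs from the same group had a median of 2.30. MEHP 3 was closest to control 2 (1.29, against 3.88 to 4.72 from the other MEHP arrays) and MEHP 4 to DEHP 3 (1.37). Both thus lay nearer to an array of another group than to their own, and whether they hold the RNA that their labels name was not tested, so the MEHP values of Inha and Gdf6 are also given without them. EHO arrays were dimmer, with 46.1% to 63.5% of their spots well above background, against 63.9% to 79.8% elsewhere. Since no slide held arrays of more than 1 group, an effect of the slide cannot be told apart from one of the compound. The markers of the tissue were present: all 10 Sertoli cell genes and all 8 Leydig cell genes of the marker lists were above background on 13 or more arrays. All p-values rest on the spread between litter pools.

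The sequence in front of the Inha gene is shown because this gene, the subunit that makes a dimer an inhibin, had the clearest pattern among the subunits, and the sequence in front of Inhba is shown for comparison. Both are the 250 bases before the annotated start, from RefSeq on build GRCr8, on chr9:84442859-84443108 (plus strand) for Inha and chr17:53804509-53804758 (minus strand) for Inhba. Capitals mark AGGTCA, a short element bound by nuclear receptors such as Nr5a1, and TGCGTCA, a variant of the cyclic AMP response element, searched on both strands together with the full element TGACGTCA.
Inha: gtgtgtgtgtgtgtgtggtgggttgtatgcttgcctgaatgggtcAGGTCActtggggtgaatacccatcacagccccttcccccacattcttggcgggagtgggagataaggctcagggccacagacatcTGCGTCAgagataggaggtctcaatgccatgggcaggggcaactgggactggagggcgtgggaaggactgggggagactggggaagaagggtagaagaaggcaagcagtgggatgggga
Inhba: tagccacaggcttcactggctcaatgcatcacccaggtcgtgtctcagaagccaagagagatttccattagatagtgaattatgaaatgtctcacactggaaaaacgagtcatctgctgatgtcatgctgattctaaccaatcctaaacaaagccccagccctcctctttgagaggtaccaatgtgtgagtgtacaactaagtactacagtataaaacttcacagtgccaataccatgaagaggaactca
In the Inha sequence AGGTCA lies 205 to 200 bases and TGCGTCA 119 to 113 bases before the start. AGGTCA occurred in 14.1% of the 33469 promoter windows of this length in the RefSeq table, TGCGTCA in 1.66% and TGACGTCA in 1.59%. Of the 60 members, 44 matched an entry of that table by symbol, and Inha alone among them held TGCGTCA. The Inhba sequence held none of these 3 motifs. A letter match describes the sequence and is not a binding site, and the array did not measure binding.

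Inha, whose probe lies on chr9:74783980-74784040 of build rn4, was lower with DEHP on every array. Its log2 levels were 5.26, 5.01, 5.13 and 4.90 with DEHP, 4.41, 4.42, 5.70 and 5.16 with MEHP, 5.59, 5.48, 5.63 and 5.81 with TOTM, 5.14, 5.48, 5.03 and 5.62 with EHO, and 5.50, 5.76, 5.60 and 5.55 on the control arrays. All 4 DEHP arrays lay below all 4 controls, the TOTM arrays overlapped them, with TOTM 2 below and TOTM 4 above the control range, and the MEHP arrays ran from far below the controls on arrays 1 and 2 to within the control range on array 3. The difference from control was −0.53 ± 0.20 with DEHP (limma adjusted p = 0.9999) and −0.51 ± 0.22 with MEHP (adjusted p = 0.82), against 0.03 ± 0.20 with TOTM and −0.28 ± 0.20 with EHO. None of the 4 differences passed the adjusted test. With MEHP 3 and 4 left out, MEHP stood at −1.18 ± 0.22 with an adjusted p of 0.024, but MEHP was then 1 sample, assumed to vary like the other groups. The authors' deposited table lists Inha as 1.46-fold lower with DEHP (p = 2.44e-10) and 2.3-fold lower with MEHP (p = 1.65e-37), and does not list it for TOTM or EHO; its tool is not given in the sources used here.

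The Leydig cell markers are given beside Inha. Of 7 Leydig cell genes tested against control, 6 were below control with DEHP (median −0.79), 7 with MEHP (median −0.93), 3 with TOTM (median 0.05) and 5 with EHO (median −0.57). Of these only 1 was called, with EHO, and none with DEHP or MEHP. The summed linear level of the 6 genes measured on every array was 44.6 to 59.3 with DEHP, 18.4 to 123 with MEHP, 76.7 to 101 with TOTM, 48.0 to 73.9 with EHO and 86.6 to 118 on the control arrays. Within MEHP the sums were 18.4, 19.1, 123 and 58.7 on arrays 1 to 4, so the arrays low or high for Inha were also low or high for the Leydig cell genes. The summed Sertoli cell level, over 10 genes, was 80.5 to 94.8 with DEHP, 61.0 to 94.96 with MEHP, 79.7 to 100.1 with TOTM, 65.0 to 88.8 with EHO and 64.4 to 80.6 on the control arrays. The mean log2 level of these genes was 0.18 to 0.87 with EHO, below the 0.89 to 0.93 of the control arrays. With EHO 7 of the 10 were below control (median −0.22). With DEHP, MEHP and TOTM 3, 2 and 3 were below (medians 0.13, 0.10 and 0.07). Cyp11b1 and Cyp11b2, enzymes of the adrenal cortex, had a summed level of 0.305 to 0.542 with DEHP, 0.276 to 1.58 with MEHP (the highest on MEHP 3), 1.19 to 2.03 with TOTM, 0.474 to 0.933 with EHO and 0.965 to 1.61 on the control arrays. The DEHP and EHO sums of the Leydig cell and the adrenal genes lay below every control, whereas Inha overlapped the controls with EHO. The part of any of these cell types in the Inha values was not tested.

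**Figure D1:**
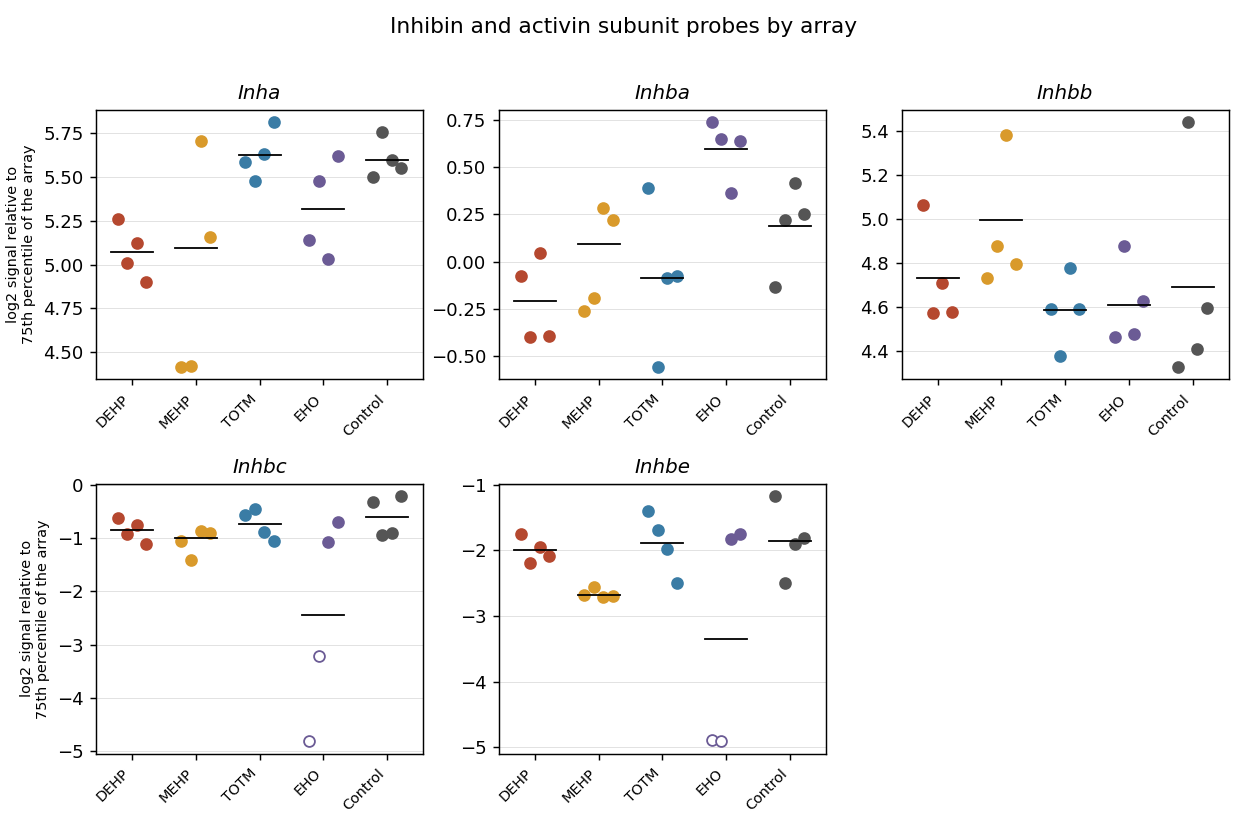
Log2 level (signal minus the array's 75th percentile, both in log2) of the 5 inhibin and activin subunit probes, with 1 point per array for DEHP, MEHP, TOTM, EHO and control; lines are group means (MEHP 1 and 2 counted once) and open points are spots not well above background. All DEHP points of Inha lie below the control points, and the low EHO points of Inhbc and Inhbe are arrays 1 and 2.

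Of the beta subunits none was called with DEHP, MEHP or TOTM, and Inhbc fell with EHO. Inhba, the beta A subunit of activin A and inhibin A, had levels of −0.08, −0.40, 0.05 and −0.39 with DEHP, −0.26, −0.19, 0.28 and 0.22 with MEHP, 0.39, −0.56, −0.09 and −0.08 with TOTM, 0.74, 0.65, 0.36 and 0.64 with EHO, and −0.13, 0.22, 0.41 and 0.25 on the control arrays. The DEHP arrays overlapped the controls (−0.40 ± 0.19), and 3 of 4 EHO arrays lay above all of them (0.41 ± 0.19, adjusted p = 0.099), so neither difference was called. Inhbb, the beta B subunit of inhibin B, stood at 0.04 ± 0.21 with DEHP, 0.30 ± 0.23 with MEHP, −0.11 ± 0.21 with TOTM and −0.08 ± 0.21 with EHO. Its 3 probes disagreed for EHO: the other two gave −0.68 (adjusted p = 0.091) and 1.12 (adjusted p = 0.0059). Inhbc and Inhbe code for the beta C and beta E subunits, known mainly from liver, and with DEHP, MEHP and TOTM their differences ran from −0.82 (Inhbe, MEHP) to −0.04 (Inhbe, TOTM).

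Over all members, DEHP gave 0 calls among 50 genes, against 0.00418% of all 23897 genes tested. At an unadjusted limma p under 0.05 the count was 3 of 50 (Inha, Inhba and Gdf6, each lower), against 2.47% of all genes. The members' median difference was −0.05, against −0.03 over all genes tested. TOTM gave 0 calls among 50 members, against 0.00837% of all genes, and EHO gave 12, against 24.8%. MEHP gave 1 call among 50, Gdf6, against 0.946% of all genes, and 0.0209% for calls in its direction. At an unadjusted limma p under 0.05 MEHP gave 2 of 50 (Gdf6 and Inha), against 5.32% of all genes, and EHO 23 of 50, against 45.6%. The 4 comparisons share the control arrays.

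**Figure D2:**
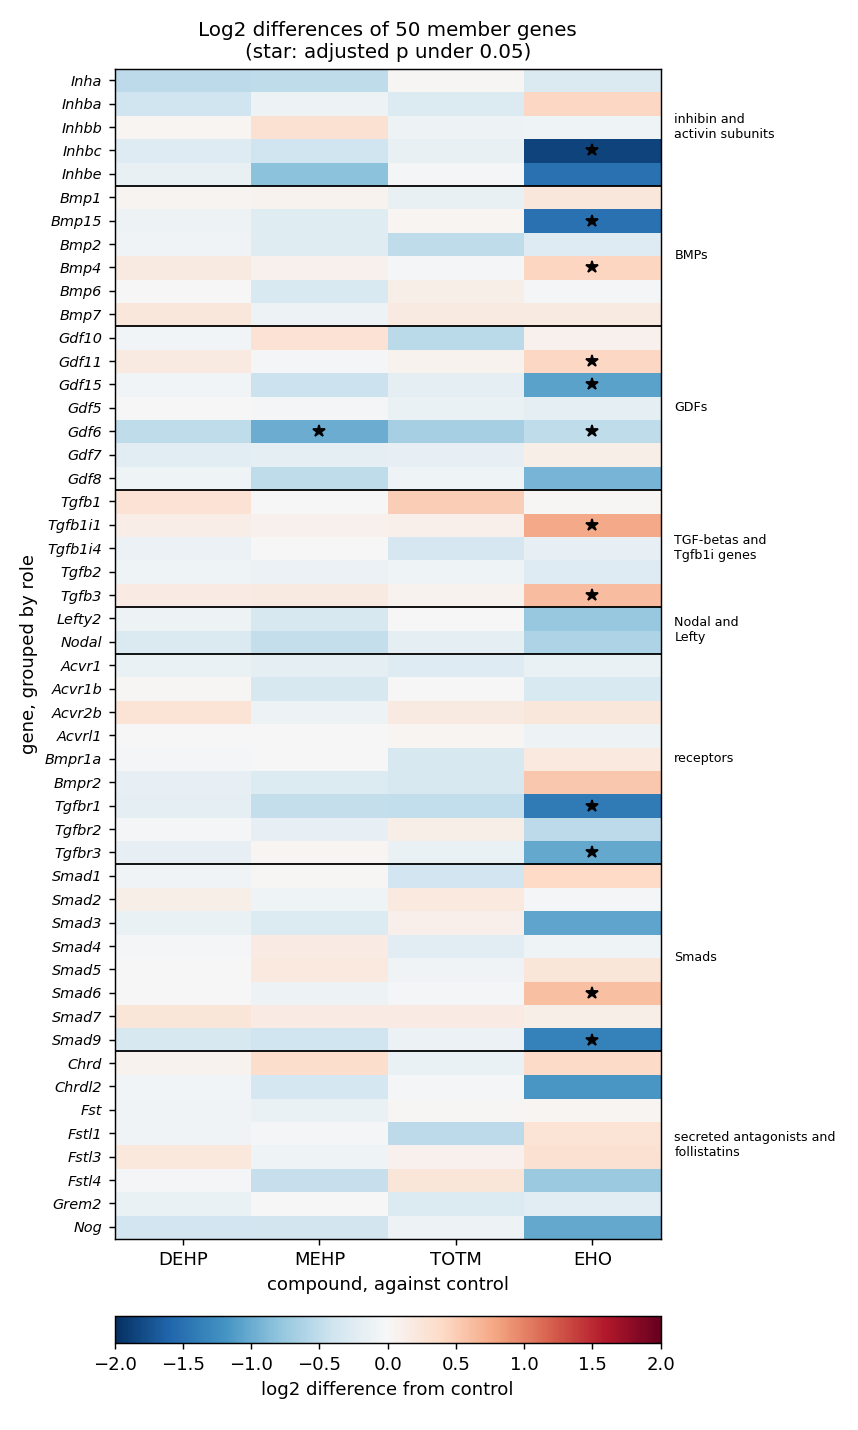
Log2 difference from control of the 50 tested member genes (rows, grouped by role) with DEHP, MEHP, TOTM and EHO (columns); blue is lower and red higher than control, and a star marks an adjusted p under 0.05. There is 1 star with MEHP, 12 with EHO and none with DEHP or TOTM.

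Among the growth differentiation factors, Gdf6, a BMP-type ligand known for its part in the skeleton and the eye, was the member that fell with MEHP. Its probe lies on chr5:23755911-23755970 of rn4 and was well above background on all 20 arrays. Levels were −1.64, −2.30, −2.33 and −2.74 with DEHP, −2.42, −2.92, −2.77 and −2.74 with MEHP, −2.32, −2.37, −2.37 and −2.53 with TOTM, −2.18, −2.53, −2.18 and −2.10 with EHO, and −1.69, −1.46, −1.93 and −1.89 on the control arrays. All MEHP, TOTM and EHO arrays and 3 of 4 DEHP arrays lay below every control. The difference was −0.98 ± 0.19 with MEHP, 1.98-fold lower (adjusted p = 0.016), and −0.50 ± 0.18 with EHO (adjusted p = 0.0497). It was −0.51 ± 0.18 with DEHP (adjusted p = 0.9999) and −0.66 ± 0.18 with TOTM (adjusted p = 0.30), which were not called.

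MEHP 3 lay close to control 2 over all probes but not in Gdf6, where it was 1.31 lower. Over the 50 members the median size of the difference between this pair of arrays was 0.14, and Gdf6 had the largest. Between MEHP 4 and DEHP 3 the median size was also 0.14, and Gdf6 differed by −0.41. The MEHP call for Gdf6 was made under 27 of 36 alternative settings, with differences from −1.07 to −0.33, and was lost with quantile, normexp or median scaling, and without control 1, control 2, MEHP 3 or MEHP 4 singly or in the pairs tried (MEHP 3 and 4, control 2 and MEHP 3). Without MEHP 3 and 4 it stood at −0.93 ± 0.30 (adjusted p = 0.39), with MEHP then 1 sample. The authors' deposited table does not list Gdf6 for any compound.

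The other growth differentiation factors were not called with DEHP, MEHP or TOTM. Gdf10, a relative of the BMPs that is also called Bmp3b, had levels of −0.58, −0.35, −0.67 and −0.28 with TOTM, 0.75, 0.72, 0.46 and −0.11 with MEHP, and −0.17, 0.60, −0.17 and 0.03 on the control arrays. The TOTM arrays lay below all the controls (−0.55 ± 0.30), and the MEHP arrays overlapped them (0.29 ± 0.33). Gdf8, the muscle growth inhibitor myostatin, differed by −0.51 ± 0.53 with MEHP, and Gdf7, a ligand known from the developing nervous system, by −0.22 ± 0.16 with DEHP. Gdf15, a stress-induced ligand of the family, differed by −0.42 ± 0.38 with MEHP. Gdf9, the oocyte ligand, was among the 10 member genes too dim to test, which also included Bmp3, Bmp5, Acvr1c, Acvr2a, Bmpr1b, Chrdl1, Fstl5, Grem1 and Tgfbrap1.

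With TOTM, as with the other compounds, some members lay to one side of the controls on every array. With TOTM none of them passed the adjusted test. Bmp2, a BMP ligand that acts through Smad1, Smad5 and Smad9, had levels of −0.86, −1.10, −1.09 and −1.10 with TOTM, −0.52, −0.49, −0.61 and −0.80 with DEHP, −0.69, −0.76, −0.89 and −0.71 with MEHP, −0.95, −0.94, −0.57 and −0.69 with EHO, and −0.59, −0.68, −0.47 and −0.37 on the control arrays. All 4 TOTM arrays lay below every DEHP and control array. The difference from control was −0.51 ± 0.11 (limma adjusted p = 0.17). It was called under 3 of 36 alternative settings: quantile normalization, array weights and the percentile without outlier spots. The authors' deposited table lists Bmp2 as 1.34-fold lower with TOTM (p = 0.00015).

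Fstl1, a secreted follistatin-like protein that binds BMP ligands, had levels of 0.45, 0.43, 0.33 and 0.56 with TOTM, against 0.74, 1.34, 0.79 and 0.98 on the control arrays (−0.52 ± 0.16, adjusted p = 0.43). Smad1, which carries the BMP signal, had 0.10, 0.08, 0.16 and 0.02 with TOTM, against 0.49, 0.55, 0.56 and 0.31 on the control arrays (−0.38 ± 0.16, adjusted p = 0.57). In both genes every TOTM array lay below every control. A further Smad1 probe gave −0.08 with TOTM. Tgfb1, the TGF-beta 1 ligand, went the other way, with 0.10, 0.02, 0.11 and 0.31 with TOTM, against −0.29, −0.58, −0.11 and −0.44 on the control arrays (0.49 ± 0.16, adjusted p = 0.47). Its probe is repeated in 10 spots of each array, and all 4 TOTM arrays lay above all the controls. With DEHP it stood at 0.29 ± 0.16. In all, 5 of 50 members passed an unadjusted limma p under 0.05 with TOTM (Bmp2, Gdf6, Fstl1 and Smad1 lower, Tgfb1 higher), against 8.21% of all genes. Arrays of TOTM and control did not overlap for 6 of 50 members, against 7.23% of all genes. Of these 6, 5 were lower, against 3.36% of all genes, and 1 was higher, against 3.87%. Non-overlap with control was also seen for 7 of 50 members with MEHP, all lower, against 10.3% of all genes (6.89% lower). It was seen for 5 with EHO, against 13.4%, and for 2 with DEHP, against 2.92%. The count at the unadjusted p is near the background, and no count was tested against it. The authors' deposited table lists 8 member probes for TOTM, 10.8% of the 74, against 8.04% of all probes. Of these, Fstl1, Smad1 and Gdf10 are listed lower and Tgfb1 higher.

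**Figure D3:**
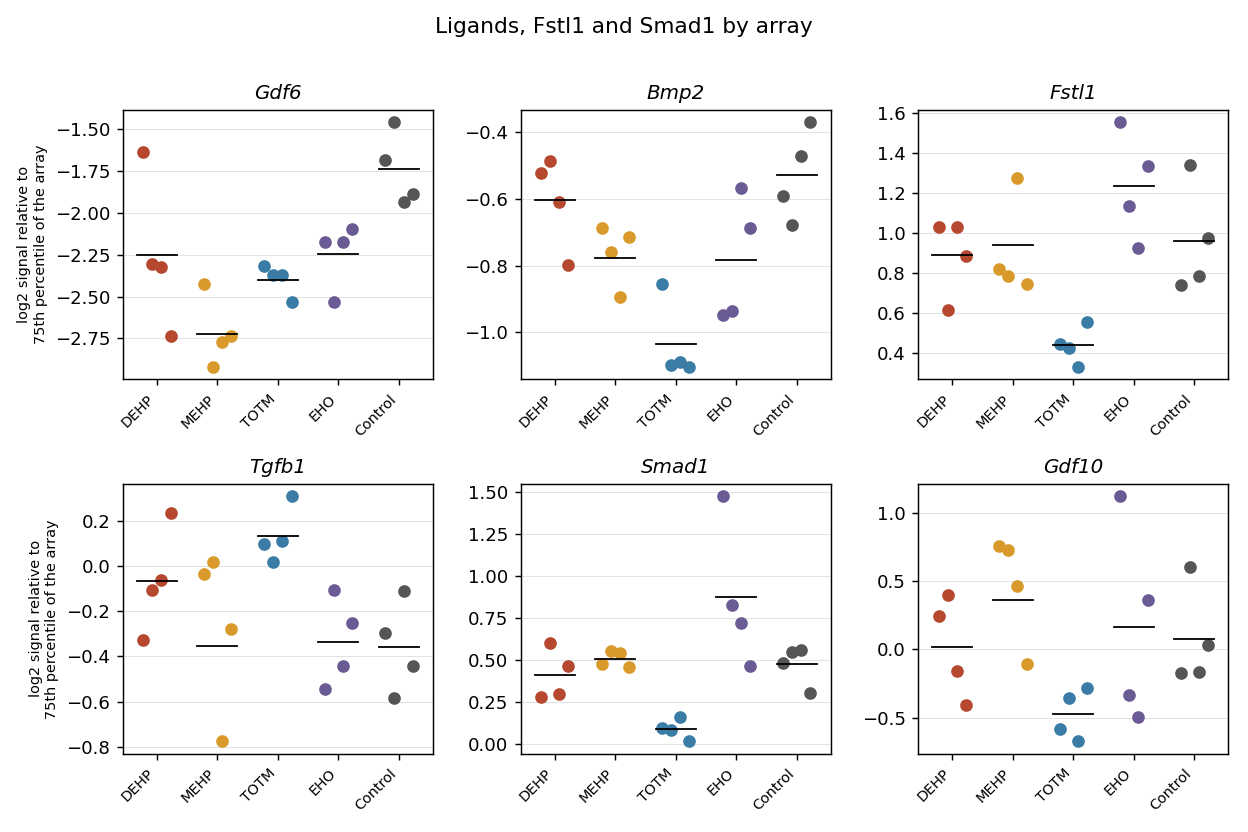
Log2 level (signal minus the array's 75th percentile, both in log2) of the Gdf6, Bmp2, Fstl1, Tgfb1, Smad1 and Gdf10 probes, with 1 point per array for DEHP, MEHP, TOTM, EHO and control; lines are group means. The TOTM points lie below all control points for Gdf6, Bmp2, Fstl1, Smad1 and Gdf10, and above them for Tgfb1.

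None of the remaining ligands was called with DEHP, MEHP or TOTM. Bmp4, a ligand with broad roles in the embryo, stood at 0.17 ± 0.14 with DEHP, 0.09 ± 0.15 with MEHP and −0.02 ± 0.14 with TOTM. Bmp7, a ligand best known from the kidney, stood at 0.23 ± 0.17 with DEHP, −0.10 ± 0.19 with MEHP and 0.18 ± 0.17 with TOTM. Tgfb2 lay between −0.12 and −0.08 and Tgfb3 between 0.06 and 0.18 with these 3 compounds. Nodal, an early embryonic ligand that also acts in foetal germ cells, stood at −0.29 ± 0.30 with DEHP, −0.48 ± 0.32 with MEHP and −0.19 ± 0.30 with TOTM. For MEHP the authors' deposited table lists 14 member probes, 18.9% of the 74, against 9.33% of all probes. It lists Tgfb1 as 1.4-fold, Tgfb3 as 1.5-fold, Bmp4 as 1.3-fold, Gdf10 as 1.5-fold, Tgfb1i1 as 1.5-fold, Smad6 as 1.4-fold, Smad7 as 1.3-fold and 1 probe each of Chrd and Inhbb as 1.6-fold and 1.9-fold higher. Besides Inha, the same deposited table has Inhba and Tgfb1i4 as 1.3-fold, Inhbc as 1.4-fold and 1 probe of Tgfbr1 as 1.7-fold lower. The table lists 3 member probes for DEHP, 4.05% against 2.45% of all probes, and 11 for EHO, 14.9% against 10.3%. The 11 for EHO are all listed higher, as are 2813 of all 4210 probes listed for EHO. In the limma fit Tgfb1, Tgfb3 and Bmp4 stood at 0.00 ± 0.18, 0.18 ± 0.17 and 0.09 ± 0.15, with MEHP 1 and 2 high and MEHP 3 low: the Tgfb3 levels were 1.64, 1.73, 0.96 and 1.31 with MEHP, against 0.92, 1.07, 1.30 and 1.28 on the control arrays.

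No receptor, Smad or antagonist was called with DEHP, MEHP or TOTM. Of 9 receptor genes, 7 were below control with DEHP (median −0.03), 6 with MEHP (median −0.17) and 5 with TOTM (median −0.13). Bmpr1a, a type I receptor for BMPs, stood at −0.32 ± 0.15 with TOTM (limma adjusted p = 0.58), and Tgfbr1, the type I TGF-beta receptor, at −0.49 ± 0.30. This Tgfbr1 probe was well above background on 1 of 4 TOTM arrays. Another Tgfbr1 probe, well above background on all 4, gave −0.15 ± 0.41 with TOTM. Acvr2b, a type II activin receptor, stood at 0.28 ± 0.24 with DEHP and 0.19 ± 0.24 with TOTM. Bmpr2, the type II BMP receptor, lay between −0.32 and −0.16 with these 3 compounds, Acvr1, a type I receptor, between −0.25 and −0.14, Tgfbr2 between −0.17 and 0.12, and Tgfbr3 between −0.17 and 0.03. The 8 Smads lay between −0.32 and 0.24 with DEHP and between −0.40 and 0.19 with MEHP. Smad7, an inhibitory Smad, stood at 0.24 ± 0.16 with DEHP, and Smad4, the common partner, and Smad5 at 0.17 ± 0.19 and 0.19 ± 0.15 with MEHP. Smad2, which carries the activin signal, stood at 0.19 ± 0.14 with TOTM. Fst, follistatin, which traps activin, had the smallest spread between arrays of 1 group of all members (pooled SD 0.105). It stood at −0.07 ± 0.10 with DEHP, −0.14 ± 0.10 with MEHP, 0.03 ± 0.10 with TOTM and 0.04 ± 0.10 with EHO. The other Fst probe gave −0.08 with DEHP, 0.01 with MEHP and 0.05 with TOTM, but 0.38 ± 0.12 with EHO (adjusted p = 0.038 in the fit over all probes), and the authors' deposited table lists it as 1.51-fold higher with EHO. On the brightest probe the 95% interval ran from −0.28 to 0.13 with DEHP and from −0.36 to 0.09 with MEHP. Chrd, chordin, a BMP antagonist, stood at 0.35 ± 0.19 with MEHP, and Nog, noggin, another, at −0.38 ± 0.43 with DEHP. Fstl3, which binds activin, lay between −0.08 and 0.20, and Fstl4, a follistatin-like protein, reached 0.24 ± 0.28 with TOTM. Fstl4 passed the filter through TOTM alone, so this difference is not independent of the filter. Its spots were well above background on 4 TOTM, 2 DEHP and 2 control arrays, and on no MEHP or EHO array.

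With EHO, 12 of 50 members were called, 24%, which is no more than the 24.8% of all genes called in that comparison. The 5 that rose, against 6.44% of all genes, were Tgfb1i1, a cofactor of steroid receptors that is induced by TGF-beta, Tgfb3, Smad6, Bmp4 and Gdf11, a ligand close to myostatin. The 7 that fell, against 18.3% of all genes, were Inhbc, Bmp15, an oocyte ligand in the ovary, Tgfbr1, Smad9, Gdf15, Tgfbr3, the co-receptor betaglycan that also binds inhibin, and Gdf6. For EHO the authors' deposited table lists each of the 5 that rose as higher and none of the 7 that fell. Higher calls made up 41.7% of the 12, and between 11.1% and 81% of the member calls under 5 other scalings. Among the calls over all genes they made up 26%, and between 11.9% and 68% under the same 5 scalings. The median over all genes with EHO was −0.18, and it was 0.35 with median scaling. Relative to the median of all genes, each of the 12 kept its direction under all 6 scalings, but Gdf6 (−0.33 to −0.01) and Tgfbr3 (−0.85 to −0.02) came close to 0. Scalings by a percentile or the median shift all genes of an array alike and leave this relative value as it is. Only quantile normalization, with or without normexp, could change it.

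The genes that rose did so on bright, measured spots. Smad6, the inhibitory Smad of the BMP branch, had levels of 0.18, 0.18, 0.38 and 0.15 with EHO, against −0.33, −0.58, −0.34 and −0.28 on the control arrays. It differed by 0.60 ± 0.15, 1.52-fold (adjusted p = 0.021), and was the single member whose 4 EHO arrays lay above all 16 other arrays, against 1.43% of all genes. Tgfb3 had 2.03, 1.72, 1.64 and 1.63 with EHO, against 0.92, 1.07, 1.30 and 1.28 on the control arrays, 0.61 ± 0.15 or 1.53-fold higher (adjusted p = 0.022). In both genes the groups did not overlap. Bmp4 had −0.68, −0.91, −0.38 and −0.37 with EHO, against −1.11, −1.23, −0.91 and −0.81 on the control arrays (0.43 ± 0.14, adjusted p = 0.040). Tgfb1i1 stood at 0.76 ± 0.24 (adjusted p = 0.040) and overlapped the controls on 1 array, EHO 3. Gdf11 stood at 0.41 ± 0.11 (adjusted p = 0.030) on its brightest probe and at −0.91 on the other (adjusted p = 0.054). The highest differences that were not called were those of Bmpr2 (0.54 ± 0.28), Inhba (0.41 ± 0.19), Smad1 (0.40 ± 0.16) and Chrd (0.39 ± 0.17). The other Chrd probe passed with EHO in the fit over all probes (0.47 ± 0.14, adjusted p = 0.034), and the other Smad1 probe stood at −0.11. The Bmpr1a probes disagreed: the brightest stood at 0.19 ± 0.15 with EHO, and the other passed in the fit over all probes at −0.71 ± 0.19 (adjusted p = 0.025).

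Of the 7 genes that fell, 5 did so on dim spots of 2 arrays. Inhbc had levels of −4.81, −3.21, −1.07 and −0.70 with EHO, against −0.32, −0.94, −0.91 and −0.22 on the control arrays. The spots of EHO 1 and 2 were not well above background, while EHO 3 lay just below the control range and EHO 4 inside it. The difference was −1.85 ± 0.61 (adjusted p = 0.042) and −0.28 without EHO 1 and 2. Bmp15 (−1.49 ± 0.50), Smad9 (−1.36 ± 0.47), Gdf15 (−1.07 ± 0.35) and Tgfbr3 (−1.03 ± 0.35) also had EHO 1 and 2 below background. Without these arrays they stood at −0.25, −0.08, −0.20 and −0.16. Among members that were not called, Inhbe (−1.49 ± 0.59), Chrdl2, a chordin-like antagonist (−1.16 ± 0.52), Smad3 (−1.06 ± 0.42) and Nog (−1.03 ± 0.43) had the lowest differences. In all, 15 of 50 members had EHO 1 and 2 below all 16 arrays of the other groups and EHO 3 and 4 not below them, which is 30% and near the 29.5% of all genes with this pattern. Tgfbr1 was not well above background on any EHO array, with levels of −4.58, −3.92, −3.41 and −2.94 with EHO, against −1.99, −2.33, −2.38 and −2.50 on the control arrays. It was at least 1.38-fold lower, a bound set against the dimmest signal well above background on each EHO array. The adjusted p of 0.011 belongs to the fitted limma difference of −1.41, which uses the signals below that level, and the bound was not tested.

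**Figure D4:**
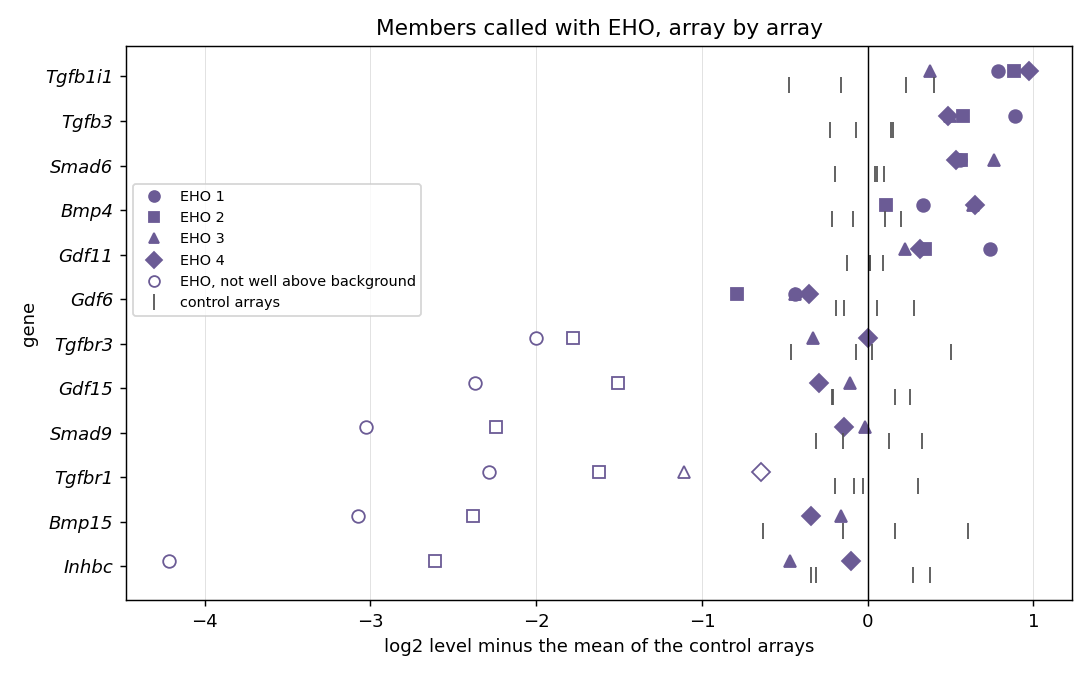
Log2 level minus the control mean for the 12 members called with EHO: each symbol is 1 EHO array, open where the spot was not well above background, and grey bars are the control arrays. For Inhbc, Bmp15, Smad9, Gdf15 and Tgfbr3, EHO 1 and 2 lie far to the left and EHO 3 and 4 lie near the controls.

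With only EHO and control arrays in the fit none of the 50 members was called by limma, against 0.0126% of all genes. Without EHO 1 and 2 none was, against 0.899%. The 5 genes that rose then stood at 0.65 (Smad6), 0.49 (Tgfb3), 0.64 (Bmp4), 0.68 (Tgfb1i1) and 0.27 (Gdf11), with 2 EHO arrays left. Leaving out control 1 alone left 1 member called, against 2.9% of all genes, leaving out EHO 1 left 1, against 3.32%, and leaving out EHO 3 gave 23, against 41.5%. In the fit of all arrays some markers of other cell types were also called higher with EHO, as were 6.44% of all genes. Of 7 peritubular and interstitial genes tested, 3 rose (Lum, Des and Nr2f2), with a summed level of 44.5 to 63.4 with EHO and 32.7 to 45.3 on the control arrays. Of 4 mesonephric duct genes tested, Krt1-19 and Pax2 rose and 2 were below control. The summed level of the 4 was 3.80 to 4.80 with EHO and 2.79 to 3.49 on the control arrays. Their mean log2 level overlapped, at −1.77 to −0.49 with EHO and −1.06 to −0.69 on the control arrays. The part of these cell types in the member calls was not tested.

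The 3 esters share the 2-ethylhexyl group: DEHP carries 2 such ester arms on a phthalate ring, MEHP keeps 1 of them beside a free acid, and TOTM carries 3 on a trimellitate ring. They were compared at the same dose by mass, in 3 pairs. MEHP against DEHP gave 0 member calls, against 1.12% of all 24217 genes tested, TOTM against DEHP gave 0, against 0% of all genes, and TOTM against MEHP gave 0, against 1.52%. At an unadjusted limma p under 0.05 the counts were 1, 3 and 7 of 50, against 5.57%, 3.01% and 13.9% of all genes.

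Inha was higher with TOTM than with DEHP on every array, by 0.55 (95% interval 0.12 to 0.99, adjusted p = 0.99998). Against MEHP the TOTM difference was 0.53 (0.07 to 1.003, adjusted p = 0.29), and 1.21 without MEHP 3 and 4 (adjusted p = 0.023), with MEHP then 1 sample. MEHP and DEHP differed in Inha by 0.02 (−0.45 to 0.49). Bmp2 was lower with TOTM than with DEHP by −0.43 (−0.67 to −0.19, adjusted p = 0.61), and Fstl1 by −0.45 (−0.80 to −0.10, adjusted p = 0.99998). Against MEHP, TOTM had less Gdf10 (−0.84, −1.53 to −0.14, adjusted p = 0.27), Fstl1 (−0.50, −0.88 to −0.12) and Chrd (−0.49, −0.88 to −0.09), and more Tgfb1 (0.49, 0.11 to 0.86). Gdf6 was lower with MEHP than with DEHP by −0.48 (−0.88 to −0.07, adjusted p = 0.69). The adjusted test told no pair of esters apart in any of the 50 members, which does not show that the esters act alike.

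**Figure D5:**
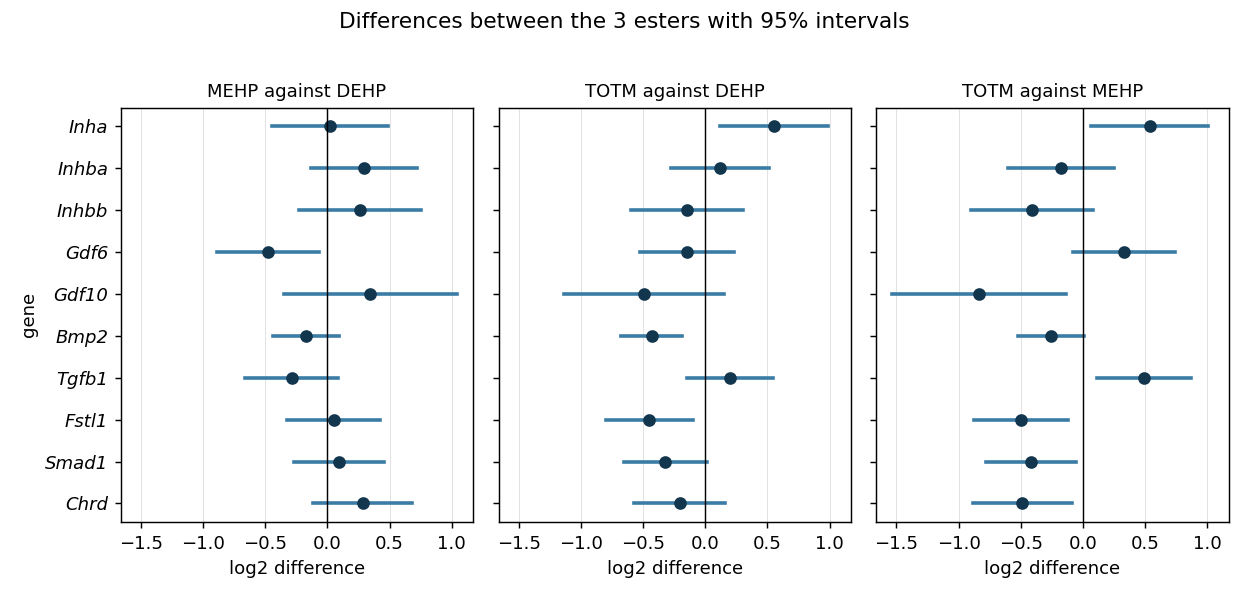
Log2 differences (points) with 95% intervals (bars) between the 3 esters for 10 members, in the panels MEHP against DEHP, TOTM against DEHP and TOTM against MEHP. Intervals that do not cross 0 include Inha, Bmp2 and Fstl1 in TOTM against DEHP, none of which passed the adjusted test.

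Beyond the members, 33 further genes of the pathway were tested against control (feedback inhibitors, matrix proteins that store ligands, and target genes). With DEHP, MEHP and TOTM none of the 33 was called. At an unadjusted limma p under 0.05 the counts were 2 (both higher) with DEHP, 2 with MEHP and 6 with TOTM. The shares of all genes at this cut were 2.47%, 5.32% and 8.21%, and the counts were not tested against them. The median difference of the 33 was −0.02 with each compound. Amh, the anti-Mullerian hormone of Sertoli cells and itself of this superfamily, stood at 0.41 ± 0.18 with DEHP, and its receptor Amhr2 at 0.43 ± 0.19. Fbn1, fibrillin, a matrix protein that holds stored TGF-beta, stood at −0.92 ± 0.21 with TOTM, Twsg1, a BMP-binding protein, at −0.62 ± 0.33, and Ltbp1, which binds latent TGF-beta, at −0.62 ± 0.28. With MEHP, Tob1, a repressor of BMP signalling, was at least 2.01-fold higher, a bound given since no control array was well above background. Its fitted difference had a limma adjusted p of 0.055 and was not called. Tob1 was well above background on 5 arrays and passed the filter through a single group, so this difference is not independent of the filter. Also with MEHP, Junb stood at −0.47 ± 0.19 and Id2, a BMP target, at 0.42 ± 0.29.

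With EHO 6 of the 33 rose and 2 fell, against 6.44% and 18.3% of all genes, so that the calls in both directions together are near the 24.8% of all genes. Id2 rose by 1.08 ± 0.27 (adjusted p = 0.021), Fbn1 by 0.92 ± 0.21 (adjusted p = 0.017), Bambi, a decoy receptor, by 0.52 ± 0.13 (adjusted p = 0.020), and Junb, Nbl1 and Tgif by 0.61, 0.55 and 0.35. Bmper, a BMP-binding protein, fell by 1.003 on the log2 scale, with 1 of 4 EHO arrays well above background. The largest difference that was not called was that of Ltbp2 (−1.30 ± 0.47), followed by that of Rgma, a BMP co-receptor (−1.14 ± 0.44). Between the esters, Tob1 was at least 1.96-fold higher with MEHP than with DEHP, where no array was well above background. The limma adjusted p of the fitted difference was 0.0039. This difference too is not independent of the filter, since Tob1 passed it through 1 group only. Fbn1 was lower with TOTM than with MEHP by −1.15 ± 0.23 (adjusted p = 0.015).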

How the data were processed

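Per the file headers, the deposited scanner files are Agilent Feature Extraction 9.5.3.1 output on an intensity scale, with probe coordinates on rn4, while the submitters' processing notes name version 9.5. The signal used is the processed one, corrected for background within an array and not scaled between arrays per the file headers. In the authors' deposited table each listed probe has a p-value under 0.01 and a score, a fold with a sign for its direction, and the tool that made them is not given in the sources used here. Spots marked as outliers were set aside, repeated spots were averaged as log2 values, and the 75th percentile of the array was subtracted. Of 41012 probes, 28133 were well above background on all arrays of 1 group or more, and the brightest of each gene name was tested (24217 genes, 23897 against control).

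A limma fit (version 3.58.1, R 4.3.3) gave each group a mean, over 19 samples, with 14 residual and 2.53 prior degrees of freedom. Adjustment was by Benjamini-Hochberg over all genes of a comparison. The fit was tested on simulated data. The number of arrays limits the precision. Replicate numbers are array positions on the slide and did not pair the samples: deviations of arrays with the same number correlated between −0.68 and 0.48. The members and lists were chosen with earlier results of these data known. Named were the called members, the 4 highest and 4 lowest others in each comparison, and a fixed set of core genes, where measured. Lists of cell type markers and pathway genes stood beside the members. The adrenal cortex list, of 2 tested genes, had medians of −1.30 with DEHP, −1.09 with MEHP, 0.12 with TOTM and −1.31 with EHO. The lists for endothelium, macrophages, erythroid cells, gonocytes and ovary had medians of −0.19 to 0.21 with DEHP, −0.14 to 0.13 with MEHP, −0.12 to 0.24 with TOTM and 0.03 to 0.73 with EHO. The values of 1 pathway gene that is no member are not reported here. A bound replaces the fold where a probe was not well above background on any array of a group, and p-values belong to the fitted difference, not to the bound. Alternatives were other scalings, filters, array weights, a replicate block and leaving out arrays.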

Additional observations from a re-analysis of the deposited data

Results flagged for a closer look

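In groups of 4 arrays, 4 of the 164 combinations of a named member and a group had 1 array far from the other 3 by Dixon's test at the 95% level, a share of 2.44%, where chance gives about 1 in 20. For Bmp2, TOTM 1 stood at −0.86, against −1.10 to −1.09 on the other TOTM arrays, and it still lay below every control. For Bmpr2, EHO 4 stood at −1.44, against −0.74 to −0.61 on the other EHO arrays, and control 3 at −0.82, against −1.68 to −1.53 on the other control arrays. For Smad6, EHO 3 stood at 0.38, against 0.15 to 0.18 on the other EHO arrays. MEHP, with n = 3, was not examined in this way.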

How the results depend on the processing

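The count of members called with MEHP against control was 1. It was 0 with quantile normalization (1.39% of all genes called), with normexp and quantile normalization (1.54%) and with median scaling (0.385%). It was also 0 with control 2 and MEHP 3 left out (0.703%), and 8 with array weights (15.5%). With MEHP 3 and 4 left out the 1 call was Inha in place of Gdf6. With TOTM the count was 0. It was 1 with quantile normalization (0.213% of all genes), array weights (0.331%) or the percentile without outlier spots (0.197%). The last of these was an alternative chosen after seeing the data. With EHO the count was 12, and it was 21 with median scaling (17 higher and 4 lower, against 34.4% of all genes called). It was 5 with a filter on all 20 arrays (14.5% of all genes), where 31 members are left to test. The replicate block, with MEHP 1 and 2 as separate samples, gave 4 (16%), and array weights gave 1 (2.91%). The count was 0 with EHO 1 and 2 left out (0.899%) or from the arrays of EHO and control alone (0.0126%). MEHP against DEHP gave 1 call from its own arrays alone (1.48% of all genes) and 4 with array weights (7.68%), in place of 0. TOTM against MEHP gave 17 with array weights (27.7%), also in place of 0. The weights rest on an estimate that stopped before it converged. DEHP against control and TOTM against DEHP gave 0 under every alternative. The cause of these shifts was not tested, apart from the fewer genes or samples that an alternative leaves.

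Leaving out single arrays gave 0 calls throughout for DEHP, TOTM and the 3 pairs of esters, 0 to 1 for MEHP and 1 to 23 for EHO. The EHO count was 1 without control 1 (2.9% of all genes called), 5 without control 3 (15.9%) and 3 without control 4 (4.91%). It was 1 without EHO 1 (3.32%), 3 without EHO 2 (4.23%), 23 without EHO 3 (41.5%) and 22 without EHO 4 (43.6%). Without MEHP 4 it was 5 (16.5%), without a DEHP array 5 to 6 (16.1% to 17.4%) and without TOTM 1, 2 or 3 it was 6 to 7 (17.5% to 18.3%). Of 1355 values of named members with EHO, 186 lost a call, 34 gained one and 2 reversed: Acvr1 stood at 0.51 with quantile normalization and Gdf6 at 0.0258 with median scaling. With DEHP 52 of 1073 values, with MEHP 70 of 1179 and with TOTM 37 of 1144 changed sign, all without a call. The replicate block changed no call outside EHO, and 3 of 20 arrays correlated best with an array of their own number. Probes near background, most often on EHO 1 and 2, set the limit for dim members.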
